A study of Mus musculus with 4 samples.

Results

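*Dmd*, the X-linked gene for dystrophin, and *Utrn*, the autosomal gene for its relative utrophin, were followed through every cell class of a single-cell RNA-seq study of sorted mouse satellite cells, the stem cells of skeletal muscle. They are 2 of the 27998 genes of the count tables, of which 21168 had at least 1 unique molecular identifier (UMI, a tag that marks 1 captured RNA molecule) in a kept cell. Both were taken by name, with earlier results of these data known. Cells came from pooled hindlimb muscles of 2 mice per strain, 1 10X 3′ library each: B10 (strain C57/Bl10ScsSn, 15 weeks old by the sample labels), *mdx* (C57BL/10ScSn-Dmdmdx, 11 weeks), DBA (DBA/2, 13 weeks) and D2-*mdx* (D2.B10-Dmdmdx, 14 weeks). *mdx* and D2-*mdx* carry the same *Dmd* mutation on a B10 and a DBA background, and B10 and DBA are their wildtype controls. The mice were male by the methods of the study, and the sort took α7-integrin+ VCAM1+ cells that were negative for Cd11b, Sca1, Cd45 and Cd31, so any white blood cell (Cd45) or endothelial cell (Cd31) in the tables passed a gate meant to remove it. With 1 library per strain there is no replicate: no test was run, and every interval is a 95% interval of counting error only. Strain, library, age and any difference in sorting cannot be told apart.

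Dystrophin is a long rod beneath the plasma membrane that ties the actin cytoskeleton to dystroglycan and, through it, to laminin outside the cell. The sarcoglycans, sarcospan, syntrophins and dystrobrevins complete the complex. Utrophin has the same build and many of the same partners. It is found at the neuromuscular and myotendinous junctions of mature fibres, in regenerating fibres and in many tissues other than muscle. In *mdx* a premature stop in exon 23 ends the full-length reading frame, while short dystrophins from internal promoters, such as the Schwann cell form Dp116 and the widespread Dp71, start downstream of it. The mutant transcript is still made, and a 3′ library counts it together with the short ones.

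In GENCODE M21 on GRCm38, *Dmd* (ENSMUSG00000045103) covers 2257.3 kb of chromosome X (82948870 to 85206141, forward strand) with 14 transcripts, 3 of them coding. Dmd-203 is the full-length form, with 79 exons and 3678 residues. Dmd-202 and Dmd-201 start with a first exon of their own 2099.5 kb into the gene, between exons 62 and 63 of Dmd-203, and code for 604 and 617 residues. All 3 coding transcripts end within the last exon of Dmd-203, but at different places. The ends lie 2257.3 kb (Dmd-203), 2256.2 kb (Dmd-201) and 2253.6 kb (Dmd-202) into the gene. The counts are summed by gene, so a *Dmd* UMI does not say which form it came from. *Utrn* (ENSMUSG00000019820) covers 487.2 kb of chromosome 10 (12382188 to 12869365, reverse strand) with 13 transcripts, 8 of them coding, and its full-length form Utrn-205 has 75 exons. No annotated gene overlaps the last exon of either gene. The map of the coding transcripts shows the place of exon 23, 56 exons before the end of Dmd-203 and far upstream of both short forms.

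**Figure D1:**
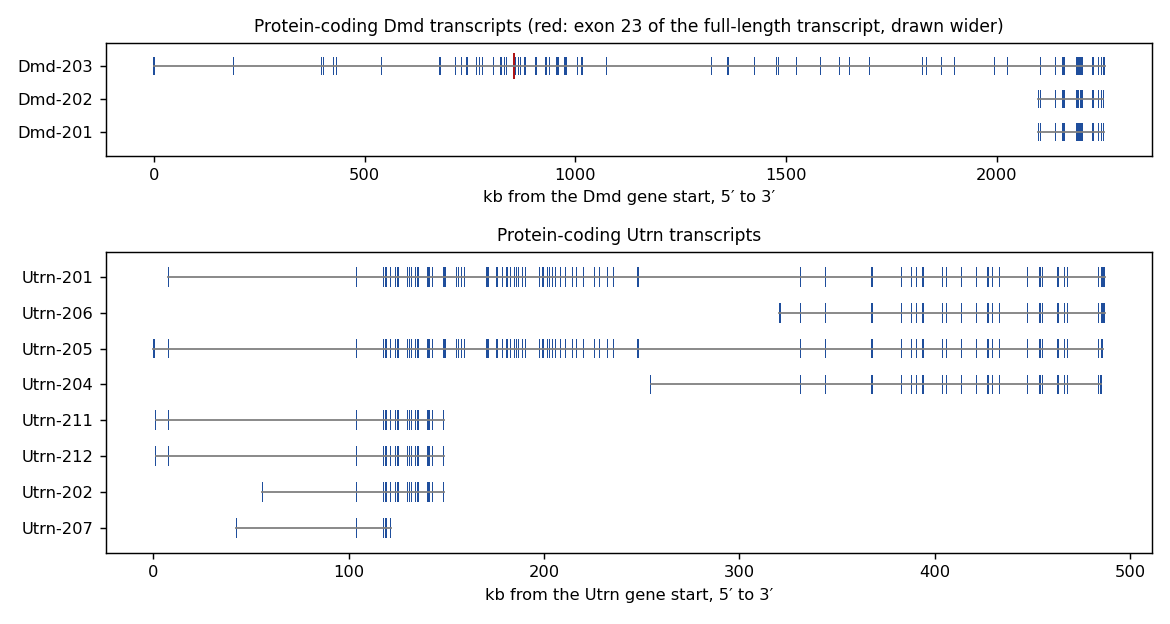
Protein-coding transcripts of *Dmd* (top) and *Utrn* (bottom) in GENCODE M21, in kb from each gene's start and read 5′ to 3′. Lines are transcripts, blue bars exons, and the red bar is exon 23 of Dmd-203. The short forms Dmd-201 and Dmd-202 begin 2099.5 kb into the gene, downstream of exon 23, and end in the same last exon.

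Exon 23 is shown because both dystrophic strains carry their stop there. It lies at chrX:83803306-83803518 on the forward strand of GRCm38 and is 213 bases long. Capitals mark its 8 in-frame codons that a single C-to-T change would turn into a stop. The sequence is the reference, read from the GENCODE M21 transcript, and the *mdx* base itself was not read from these libraries.

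Dmd exon 23: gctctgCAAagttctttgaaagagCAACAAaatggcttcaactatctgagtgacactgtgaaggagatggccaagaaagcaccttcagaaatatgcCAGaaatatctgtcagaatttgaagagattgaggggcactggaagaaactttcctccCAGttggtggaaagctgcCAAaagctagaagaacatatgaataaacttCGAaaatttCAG

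The promoters of the full-length and the short *Dmd* transcripts are shown because they differ in composition while their UMIs are counted together. Both are from RefSeq on GRCm38.p6 and run from 250 bases before to 50 bases after a start site. The full-length start is chrX:82948620-82948919 and the short start chrX:85048045-85048344, both on the forward strand. Capitals mark CANNTG, the E-box core that myogenic factors such as MyoD can bind.

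Dmd full-length start: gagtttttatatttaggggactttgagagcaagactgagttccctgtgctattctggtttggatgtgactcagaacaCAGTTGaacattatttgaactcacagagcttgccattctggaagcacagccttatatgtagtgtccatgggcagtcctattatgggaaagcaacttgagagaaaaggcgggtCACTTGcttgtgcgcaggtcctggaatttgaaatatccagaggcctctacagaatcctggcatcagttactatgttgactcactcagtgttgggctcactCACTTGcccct
Dmd short start: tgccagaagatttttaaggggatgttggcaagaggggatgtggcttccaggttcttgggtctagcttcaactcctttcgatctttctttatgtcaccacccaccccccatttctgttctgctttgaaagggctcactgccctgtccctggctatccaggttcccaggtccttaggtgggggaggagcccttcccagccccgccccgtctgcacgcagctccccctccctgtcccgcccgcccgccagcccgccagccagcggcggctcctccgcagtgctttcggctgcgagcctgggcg

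The window at the full-length start held 3 CANNTG matches, 1 TATAAA, no CCGCCC on either strand and 2 CG dinucleotides, with 45.7% G and C. The TATAAA match lay on the opposite strand, at the 5′ edge of the window and far from the start site. The window at the short start held no CANNTG, 3 CCGCCC and 14 CG dinucleotides, with 62.7% G and C. Over 32851 RefSeq promoter windows of this length, 72.3% held CANNTG, 35.7% CCGCCC and 13.6% TATAAA, with a median of 7 CG dinucleotides. Both motifs were searched on both strands, CANNTG reads the same on either, and a match is a description of these letters only.

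The filters left 4581 cells of B10, 6313 of *mdx*, 3279 of DBA and 5756 of D2-*mdx*, with medians of 8466, 7021, 10434 and 6666 UMIs per cell. They held 13554, 7089, 11289 and 5162 *Dmd* UMIs and 9180, 8145, 7617 and 5677 *Utrn* UMIs. No pair of libraries shared more than 8 kept barcodes. Clusters were set with *Dmd* and *Utrn* left out of the features and named from marker genes, so each name means that a cluster resembled a type. At least 4 markers of its own name were above 0 in every class and library. Fewer were higher than in the other cells in some control classes, 4 of 7 in DMD-enriched-like cells of B10, 2 of 7 in those of DBA and 3 of 6 in differentiating myocyte-like cells of DBA. The 5 myogenic classes were satellite cell-like (MuSC-like), DMD-enriched-like (the collagen-expressing state that the study named for its share in the dystrophic strains), immunomyoblast-like (interferon genes), cycling progenitor-like and differentiating myocyte-like. No cluster of mature fibre nuclei was found: 8 myogenic cells, 2 of *mdx* and 6 of D2-*mdx*, had over 1% of their UMIs from 6 mature fibre genes. The values of *Dmd* and *Utrn* therefore describe stem cells, progenitors and the cells sorted with them, not muscle fibres.

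In the wildtype libraries *Dmd* UMIs were counted in every myogenic class, in pericyte-like cells (contractile cells of the capillary wall), in vascular smooth muscle-like cells and in both kinds of peripheral glia. From 4 to 44 *Dmd* UMIs per wildtype library were also counted in each of the endothelial-like, white blood cell-like and fibroblast or tenocyte-like classes. *Utrn* stood highest in Schwann-like cells. In endothelial-like cells *Utrn* was above and *Dmd* below its MuSC-like level. The smooth muscle-like, Schwann-like, endothelial-like and fibroblast or tenocyte-like classes held under 20 cells in each wildtype library, the white blood cell-like class in B10 only. At the MuSC-like proportion of *Dmd* to satellite cell genes, 98.6% and 97.5% of the *Dmd* level would be reached in cycling progenitor-like cells of B10 and DBA. The same share was 88.6% in endothelial-like cells of B10. Levels are counts per 1000000 UMIs of the class (CPM). Counting from the 3′ end makes no correction for transcript length and capture may differ by gene, so levels are compared between classes and libraries for 1 gene at a time.

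In MuSC-like cells *Dmd* stood at 335 CPM in B10 (interval 329 to 342), at 186 in *mdx* (179.8 to 192), 302 in DBA (295 to 309) and 148 for D2-*mdx* (143 to 154). Both wildtype libraries were above both dystrophic libraries, and none of the 4 intervals overlapped. *Utrn* in the same cells stood at 218 CPM in B10 (213 to 223), at 144 in *mdx* (139 to 149.7), 208 in DBA (202 to 213) and 125 for D2-*mdx* (119 to 130.1). It fell into the same order of libraries as *Dmd*, with a narrower range and with the B10 and DBA intervals meeting at 213.

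The MuSC-like class pooled 4 clusters, and *Dmd* differed between them within a library. The cluster with the lowest *Fos*, an immediate-early gene that tissue dissociation can induce, had the highest *Dmd* in each library: 409 CPM in B10, 226 in *mdx*, 352 in DBA and 173 for D2-*mdx*. In this cluster *Fos* stood at 1381 to 3508 CPM, against 9599 to 17585 CPM in the largest MuSC-like cluster, where *Dmd* was 312, 171, 287 and 145 CPM in the same order of libraries. The markers of mature fibres scored slightly above those of satellite cells in the low-*Fos* cluster, 0.622 against 0.580 on a scale standardized across clusters, but *Pax7* (the defining satellite cell factor) was at 490.0 to 925 CPM there and *Acta1* (skeletal actin) at 14 to 76 CPM, so it was kept as MuSC-like. Intervals of *Dmd* did not overlap between these 2 clusters in any library. *Utrn* was also higher in the low-*Fos* cluster in B10 (249.5 against 209.8 CPM), *mdx* (167 against 136) and DBA (219 against 201), but not in D2-*mdx* (118 against 128).

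**Figure D2:**
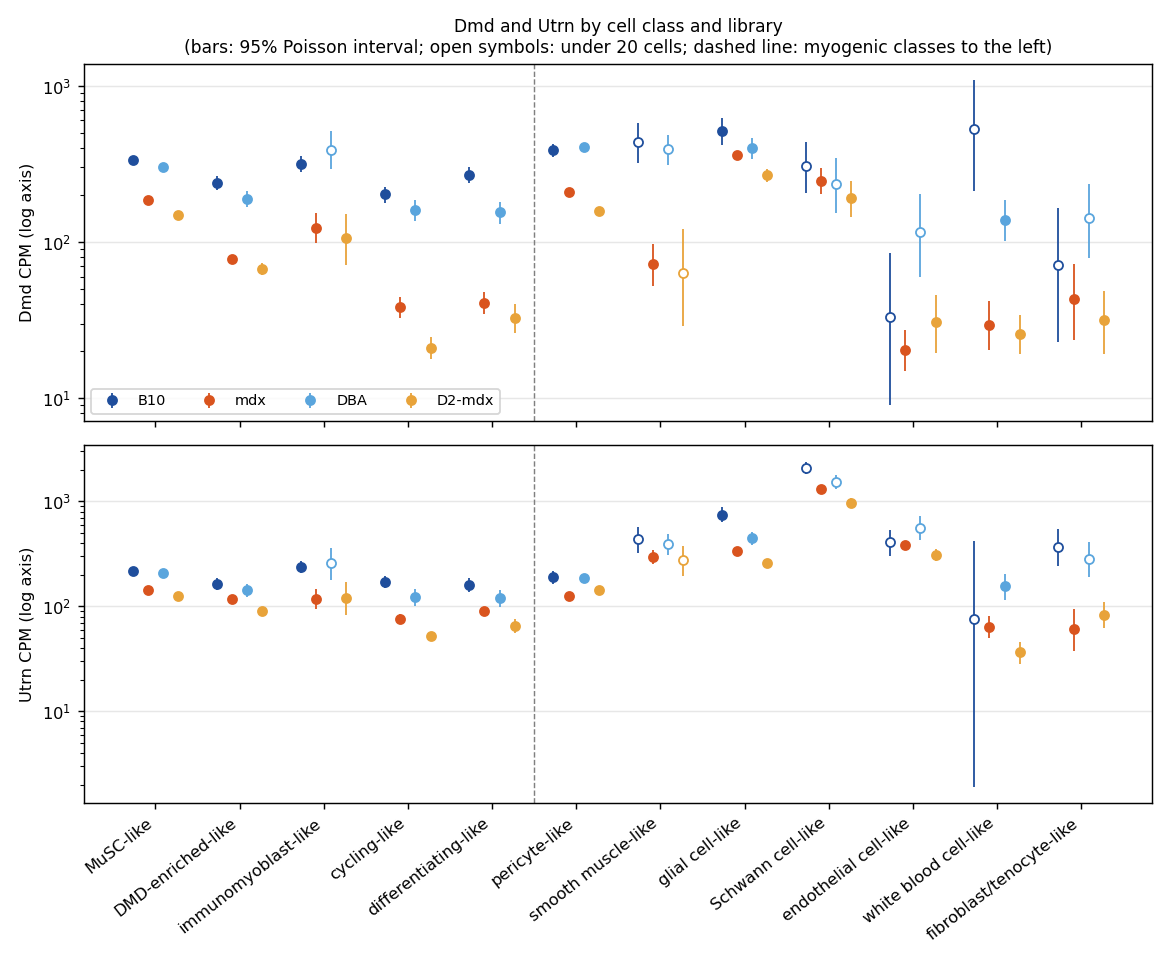
*Dmd* (top) and *Utrn* (bottom) levels in CPM on log axes, by cell class along the horizontal axis and by library in colour, with 95% Poisson intervals; open symbols are classes with under 20 cells and the dashed line ends the myogenic classes. *Dmd* was lower in the *mdx* and D2-*mdx* libraries than in B10 and DBA in every myogenic class, and *Utrn* peaked in Schwann-like cells, from 971 to 2089 CPM.

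Whether *Dmd* makes up another share of the UMIs of dystrophic satellite cells than of wildtype ones was asked with log2 ratios of CPM. The ratios are given for *mdx* over B10 first and D2-*mdx* over DBA second. CPM does not give an amount of RNA per cell, and the depth of MuSC-like cells differed between libraries. In MuSC-like cells *Dmd* was lower by a ratio of -0.85 (-0.91 to -0.80) in *mdx* and -1.03 (-1.09 to -0.96) in D2-*mdx*, that is 55.4% and 49.1% of the control level. *Utrn* in these cells was lower by -0.60 (-0.66 to -0.53) and -0.74 (-0.81 to -0.66). The median ratio over all genes that reached 10 CPM in either library of the pair was -0.08 in both comparisons, and 4.76% and 3.32% of those genes had a lower ratio than *Dmd*, 9.73% and 6.94% a lower one than *Utrn*. At least 2-fold lower in MuSC-like cells were 3.35% of 8359 genes in *mdx* and 3.53% of 8349 genes in D2-*mdx*. *Dmd* was past this limit in D2-*mdx* only and close to it there, and *Utrn* in neither.

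Each of the 4 MuSC-like clusters showed the lower *Dmd* in both comparisons, with ratios from -1.06 to -0.64 in *mdx* and from -1.29 to -0.98 in D2-*mdx*. For *Utrn* the 8 ratios ran from -1.06 to -0.23, and 1 interval included 0, that of the smallest MuSC-like cluster in *mdx* (-0.23, from -0.74 to 0.25, 44 *mdx* cells).

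Between the 2 backgrounds the levels lay closer. In MuSC-like cells DBA over B10 gave a *Dmd* ratio of -0.15 (-0.19 to -0.11) and D2-*mdx* over *mdx* one of -0.33 (-0.40 to -0.25). The same ratios for *Utrn* were -0.07 (-0.12 to -0.02) and -0.21 (-0.29 to -0.13).

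Beyond the MuSC-like cells both genes were lower in myogenic cells that had left the stem cell state, and *Dmd* more so in the dystrophic libraries. In cycling progenitor-like cells *Dmd* stood at 201 CPM in B10 (99 cells), 38.2 in *mdx* (351 cells), 159 in DBA (67 cells) and 21.1 for D2-*mdx* (449 cells). With a minimum of 500 genes per cell and no maximum these *Dmd* levels were 147, 11.7, 68.3 and 11.1 CPM. *Utrn* in these cells was 172, 76.5, 122 and 51.9 CPM in the same order. Of the myogenic classes, the cycling cells of D2-*mdx* held the lowest *Dmd* level.

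In differentiating myocyte-like cells, which express *Myog* and embryonic contractile genes, *Dmd* stood at 267 CPM in B10 (78 cells), 40.8 in *mdx* (285), 155 in DBA (65) and 32.7 for D2-*mdx* (235). *Utrn* was 159.7, 89.5, 119 and 65.3 CPM. Neither gene was above its MuSC-like level in these cells in any library.

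In DMD-enriched-like cells *Dmd* stood at 239 CPM in B10 (148 cells), 77.5 in *mdx* (1059), 189 in DBA (107) and 67.2 for D2-*mdx* (733), and *Utrn* at 164, 118, 143 and 90.2 CPM. Immunomyoblast-like cells held 316 CPM of *Dmd* in B10 (118 cells), 124 in *mdx* (80) and 106 in D2-*mdx* (32), and 389.6 CPM in the 13 cells of DBA. *Utrn* there was 236, 118, 120.4 and, in DBA, 257 CPM.

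The *Dmd* ratio of dystrophic over control was therefore not of 1 size across the named classes. Fewer markers of the name were raised in DMD-enriched-like cells of both controls and in differentiating myocyte-like cells of DBA. Their ratios may therefore compare unlike cells. It was -1.62 and -1.49 in DMD-enriched-like cells (*mdx* over B10 first), -2.40 and -2.91 in cycling progenitor-like cells and -2.71 and -2.25 in differentiating myocyte-like cells. Against the MuSC-like ratio these lay lower by -0.77 (-0.95 to -0.59) and -0.47 (-0.69 to -0.25), by -1.55 (-1.83 to -1.27) and -1.89 (-2.22 to -1.56), and by -1.86 (-2.15 to -1.57) and -1.22 (-1.61 to -0.84). With the gene limits changed to 500 and no maximum, the *mdx* ratio of *Dmd* in cycling cells was -3.65. The *Utrn* ratios moved less: the difference from MuSC-like cells was 0.13 and 0.08 in DMD-enriched-like cells, with intervals that included 0, and -0.57 (-0.82 to -0.32) and -0.49 (-0.79 to -0.19) in cycling progenitor-like cells. The cycling *Utrn* ratios were not stable, at -0.56 in *mdx* and -0.89 in D2-*mdx* with doublets kept and -0.40 in *mdx* without integration. Both *mdx* values are no lower than the MuSC-like -0.60 of the main setting. Without integration the MuSC-like *Utrn* ratio in *mdx* was -0.69.

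Satellite cell RNA in these classes also differed between libraries. The summed level of 4 satellite cell genes (*Pax7*, *Myf5*, *Calcr* and *Chodl*) in cycling progenitor-like cells was 59.2% of the MuSC-like level in B10 and 51.4% in DBA, but 19.2% in *mdx* and 10.7% in D2-*mdx*. In differentiating myocyte-like cells it was 51.5% and 40.3% in the controls and 13.3% and 13.1% in *mdx* and D2-*mdx*. The 6 mature fibre genes summed to 32.3 and 19.2 CPM in cycling cells of B10 and DBA and to 238 and 681 CPM in those of *mdx* and D2-*mdx*. At the MuSC-like proportion of *Dmd* to the satellite cell genes, cycling cells would hold 199, 35.8, 155 and 15.9 CPM of *Dmd* (B10, *mdx*, DBA, D2-*mdx*), which is 98.6%, 93.8%, 97.5% and 75.46% of their measured level. For *Utrn* the same reckoning gives 75.0%, 36.2%, 87.7% and 25.8%. In differentiating myocyte-like cells the share for *Dmd* was 64.7%, 60.8%, 78.6% and 59.6%, and in DMD-enriched-like cells 108%, 134%, 112% and 111%, so that *Dmd* stood above the level in step with the satellite cell genes in the former and below it in the latter. The part of these differences in the ratios was not tested.

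Over all myogenic cells *Dmd* gave ratios of -1.44 (-1.49 to -1.39) and -1.60 (-1.66 to -1.55) and *Utrn* -0.80 (-0.85 to -0.74) and -1.03 (-1.09 to -0.97). At least 2-fold lower in this comparison were 5.19% of 8477 genes in *mdx* and 5.84% of 8500 in D2-*mdx*. Both genes were past this limit in D2-*mdx*, and *Dmd* alone in *mdx*. The pooled ratios depended on the mix of states. With each dystrophic library set to the mix of its control they became -0.93 and -1.08 for *Dmd* and -0.62 and -0.75 for *Utrn*, all close to the MuSC-like ratios. MuSC-like cells made up 90.0% of the myogenic cells of B10 and 90.7% of those of DBA, so this closeness follows largely from the mix.

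**Figure D3:**
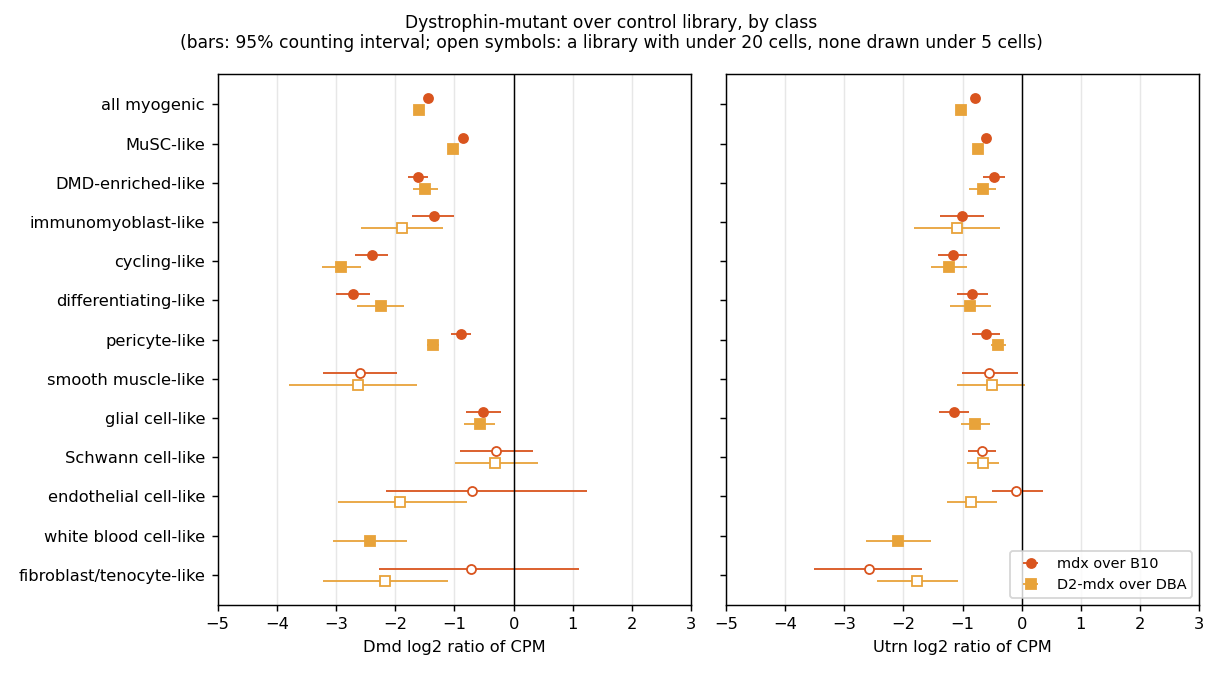
Log2 ratio of CPM, dystrophic over control library, for *Dmd* (left) and *Utrn* (right) by cell class; circles are *mdx* over B10, squares D2-*mdx* over DBA, bars 95% counting intervals, and open symbols rest on a library with under 20 cells. The *Dmd* ratios ran from -2.91 in cycling progenitor-like cells to -0.51 in glial cell-like cells among the classes with at least 20 cells in both libraries. Over the same classes those of *Utrn* ran from -2.09 in white blood cell-like cells (D2-*mdx* over DBA) to -0.40 in pericyte-like cells.

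Outside the myogenic lineage the lower *Dmd* was also found in pericyte-like cells, the largest of these classes. Pericyte-like *Dmd* stood at 386 CPM in B10 (98 cells), 209 in *mdx* (608), 407 in DBA (483) and 158 for D2-*mdx* (977). It was above the MuSC-like level in each library, and its interval was above that of MuSC-like cells in 3 of the 4, the exception being D2-*mdx*. The ratios were -0.88 (-1.05 to -0.72) and -1.37 (-1.47 to -1.26). Of the genes that reached 10 CPM in pericyte-like cells, 6.07% of 8996 in *mdx* and 3.68% of 8755 in D2-*mdx* were at least 2-fold lower, and *Dmd* was among them in D2-*mdx*.

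*Utrn* in pericyte-like cells was 189.8 CPM in B10, 125 in *mdx*, 186 in DBA and 142 for D2-*mdx*, with ratios of -0.60 (-0.83 to -0.37) and -0.40 (-0.52 to -0.27). Of the genes that reached 10 CPM there, 16.9% in *mdx* and 24.1% in D2-*mdx* had a lower ratio than *Utrn*. For *Dmd* these shares were 8.3% and 1.3%. D2-*mdx* over *mdx* gave -0.40 (-0.52 to -0.28) for *Dmd* and 0.18 (0.04 to 0.33) for *Utrn*, so that *Utrn* was the higher and *Dmd* the lower in D2-*mdx* pericyte-like cells. The satellite cell genes stood at 1.49% to 5.25% of their MuSC-like level in this class, which puts the *Dmd* that could have come with them at 1.32% to 4.56% of the *Dmd* level.

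Vascular smooth muscle-like cells were few, 7 in B10, 58 in *mdx*, 14 in DBA and 17 for D2-*mdx*. *Dmd* stood at 434, 71.9, 391 and 63.4 CPM and *Utrn* at 434, 296, 391 and 274.5 CPM. The 2 genes had the same number of UMIs in B10 (49 each) and again in DBA (83 each). The *Dmd* ratios of -2.59 (-3.21 to -1.98) and -2.62 (-3.80 to -1.63) rest on libraries with under 20 cells, as do those of *Utrn*, -0.55 (-1.01 to -0.07) and -0.51 (-1.10 to 0.06).

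In glial cell-like cells, a kind of peripheral glia, the difference in *Dmd* between dystrophic and control libraries was smaller than in MuSC-like cells. Glial cell-like cells (non-myelinating, with *Scn7a* and *Ngfr*) held 511 CPM of *Dmd* in B10 (23 cells), 359 in *mdx* (357), 397 in DBA (31) and 267 for D2-*mdx* (231), the highest *Dmd* among classes with at least 20 cells in each library except DBA, where pericyte-like cells had 407. The glial ratios were -0.51 (-0.80 to -0.21) and -0.57 (-0.83 to -0.31), and they exceeded the MuSC-like ratios by 0.34 (0.05 to 0.64) and 0.45 (0.19 to 0.71). *Utrn* in the same cells was 747, 336, 446 and 259 CPM, with ratios of -1.15 (-1.40 to -0.90) and -0.78 (-1.03 to -0.53). They differed from the MuSC-like *Utrn* ratios by -0.56 (-0.81 to -0.30) in *mdx* and by -0.05 (-0.30 to 0.21) in D2-*mdx*.

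The satellite cell genes in glial cell-like cells stood at 51.6% and 53.1% of their MuSC-like level in B10 and DBA and at 17.0% and 17.8% in *mdx* and D2-*mdx*. At the MuSC-like proportion of *Dmd* to these genes, that amounts to 173 CPM of *Dmd* in B10, 160.2 in DBA, 31.6 in *mdx* and 26.4 in D2-*mdx*, or 33.8%, 40.4%, 8.78% and 9.91% of the glial level. The part of this RNA in the glial ratio was not tested.

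Schwann-like cells (myelinating, with *Mbp* and *Prx*) were few in the controls, 14 in B10 and 11 in DBA, and more numerous in *mdx* (79) and D2-*mdx* (48). *Dmd* stood at 304 CPM (205 to 434), 247 (201 to 299), 235 (154 to 345) and 189.8 (145 to 244), in the order B10, *mdx*, DBA and D2-*mdx*, and all 4 intervals overlapped. Ratios of -0.30 (-0.90 to 0.34) and -0.31 (-0.99 to 0.41) left neither an unchanged level nor a fall of the MuSC-like size in *mdx* outside their range. The D2-*mdx* ratio lay 0.72 (0.05 to 1.38) above that of MuSC-like cells, and the *mdx* ratio 0.55 (-0.04 to 1.14). With predicted doublets kept the Schwann-like *Dmd* level was 156 CPM in *mdx* and 86.8 CPM in D2-*mdx*, below the MuSC-like level rather than above it.

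*Utrn* reached its highest levels in the Schwann-like cells of every library: 2089 CPM in B10 (1813 to 2395), then 1306 in *mdx* (1198 to 1420.2), 1528 in DBA (1307 to 1777) and 971 for D2-*mdx* (866 to 1085). Relative to MuSC-like cells of the same library this was 9.59-, 9.06-, 7.36- and 7.79-fold. With predicted doublets kept the log2 of this ratio went from 3.18 to 2.24 in *mdx* and from 2.96 to 1.56 in D2-*mdx*. Both dystrophic libraries were lower, with ratios of -0.68 (-0.91 to -0.44) and -0.65 (-0.93 to -0.38), which differed from the MuSC-like *Utrn* ratios by -0.08 (-0.32 to 0.16) and 0.08 (-0.20 to 0.36). *Drp2*, the third member of the dystrophin family and a protein of the Schwann cell membrane, averaged 976 CPM in Schwann-like cells of the 2 libraries with at least 20 such cells and 98.3 CPM in MuSC-like cells.

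Endothelial-like cells combined a low *Dmd* with a high *Utrn*. *Dmd* stood at 20.5 CPM in *mdx* (252 cells) and 30.6 in D2-*mdx* (89 cells), and at 33.2 and 116 CPM in the 14 cells of B10 and the 9 of DBA. *Utrn* stood at 381 and 309.9 CPM in *mdx* and D2-*mdx* and at 406 and 559 in B10 and DBA. For *mdx* over B10 the *Utrn* ratio was -0.09 (-0.51 to 0.35), and for D2-*mdx* over DBA it was -0.85 (-1.27 to -0.41). The satellite cell genes at 2.81% to 12.2% of the MuSC-like level would bring 5.22 CPM of *Dmd* in *mdx* and 5.56 CPM in D2-*mdx*, but 29.4 of the 33.2 CPM in B10.

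White blood cell-like cells numbered 1 in B10, 112 in *mdx*, 23 in DBA and 160 for D2-*mdx*. *Dmd* stood at 29.7 CPM in *mdx*, 139 in DBA and 25.8 for D2-*mdx*, where the satellite cell genes at 17.4%, 55.1% and 13.3% of their MuSC-like level would bring 32.4, 166 and 19.8 CPM. At that proportion the carried-over *Dmd* would be 109%, 120% and 76.6% of the measured level. The proportion itself was not tested, and no *Dmd* expression is read from these cells. *Utrn* stood at 63.9, 155 and 36.3 CPM in the same libraries, against 25.1, 115 and 16.6 CPM from carry-over. Fibroblast or tenocyte-like cells (6, 29, 8 and 50 cells) had 42.9 CPM of *Dmd* and 61.3 CPM of *Utrn* in *mdx* and 31.5 and 83.5 CPM in D2-*mdx*, where carry-over would bring 38.4 and 24.5 CPM of the *Dmd* in *mdx* and D2-*mdx*.

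Over the classes with at least 20 cells in all 4 libraries, the mean *Dmd* level ran from glial cell-like (383 ± 101 CPM, SD over 4 libraries) through pericyte-like (290.2 ± 125) and MuSC-like (243 ± 89.9) to DMD-enriched-like (143 ± 84.3), differentiating myocyte-like (124 ± 111) and cycling progenitor-like cells (105 ± 88.9). The SD includes the difference of wildtype and dystrophic strains, so neighbours overlap on this scale. Within libraries glial cell-like and pericyte-like cells were above MuSC-like cells in 4 of 4, and the other 3 of these classes below them in 4 of 4. For *Utrn* the order was glial cell-like (447 ± 214 CPM), MuSC-like (174 ± 46.2), pericyte-like (161 ± 32.4), DMD-enriched-like (129 ± 31.6), differentiating myocyte-like (108 ± 40.7) and cycling progenitor-like (106 ± 52.9). MuSC-like and pericyte-like *Utrn* did not keep their order in all libraries, pericyte-like cells being higher in 1 of 4. Schwann-like and endothelial-like *Utrn*, with at least 20 cells in the 2 dystrophic libraries only, averaged 1138 ± 237 and 346 ± 50.4 CPM.

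The balance of the 2 genes was followed as *Utrn* UMIs per *Dmd* UMI, a measure in which the scaling of a library cancels. In MuSC-like cells it was 0.649 in B10, 0.775 in *mdx*, 0.688 in DBA and 0.840 for D2-*mdx*. It stood at 0.854 and 0.765 in cycling progenitor-like cells of B10 and DBA and at 2.01 (1.66 to 2.43) and 2.46 (2.02 to 3.0) in those of *mdx* and D2-*mdx*. Differentiating myocyte-like cells went from 0.597 and 0.771 in the controls to 2.19 (1.81 to 2.67) and 2.00 (1.54 to 2.62). *Utrn* UMIs thus outnumbered *Dmd* UMIs in the progenitors of the dystrophic libraries without a higher *Utrn* CPM, since both genes were lower there.

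In pericyte-like cells the balance was 0.492 in B10, 0.597 in *mdx*, 0.458 in DBA and 0.895 for D2-*mdx*, and the *mdx* interval (0.540 to 0.660) overlapped that of B10 (0.413 to 0.583). Glial cell-like cells went the other way, from 1.46 (1.13 to 1.89) in B10 to 0.936 (0.855 to 1.03) in *mdx*, and from 1.12 (0.904 to 1.40) in DBA to 0.972 (0.856 to 1.10) in D2-*mdx*, with overlapping intervals in the second pair. Schwann-like cells held 5.11 to 6.87 *Utrn* UMIs per *Dmd* UMI in the 4 libraries, and their intervals overlapped. Endothelial-like cells held 18.6 in *mdx* and 10.1 in D2-*mdx*.

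**Figure D4:**
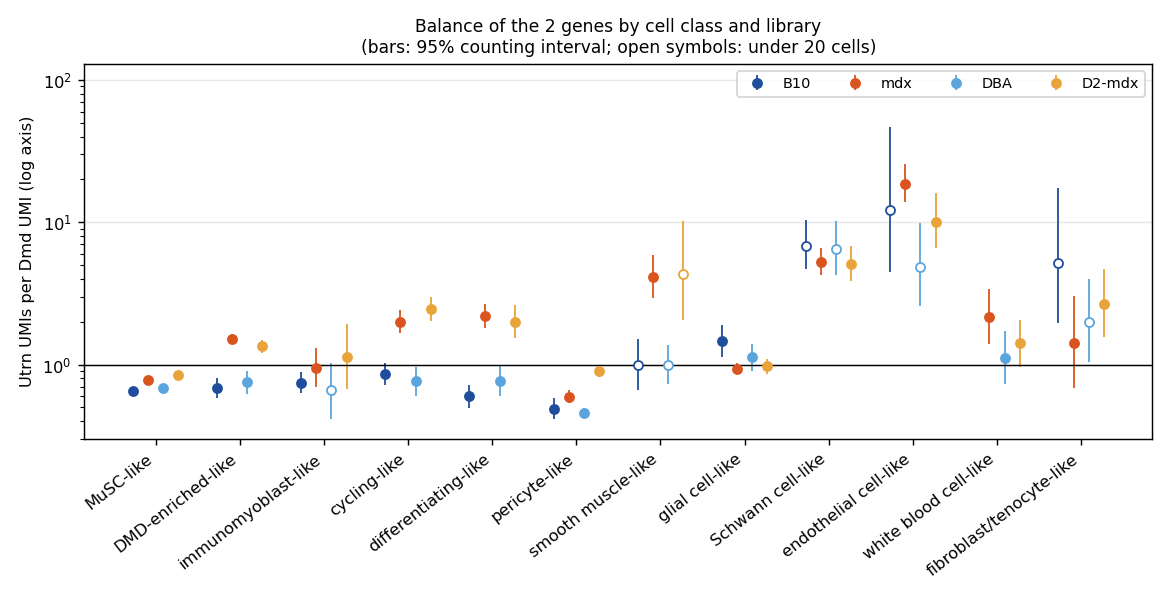
*Utrn* UMIs per *Dmd* UMI on a log axis, by cell class and library (colours), with 95% counting intervals; open symbols are classes with under 20 cells and the line marks equal numbers. MuSC-like cells of all 4 libraries lay below 1, the cycling and differentiating classes of *mdx* and D2-*mdx* at 2.00 to 2.46, and Schwann-like cells at 5.11 to 6.87.

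Cell by cell, the lower *Dmd* of the dystrophic libraries appeared as fewer MuSC-like cells with any UMI and fewer with several. Each cell was thinned to 3000 UMIs, since depth differed between libraries (medians of 8199, 5530, 10131 and 5522 UMIs in MuSC-like cells of B10, *mdx*, DBA and D2-*mdx*), and 37 shallower MuSC-like cells of B10 were left out. A *Dmd* UMI was then found in 59.6% of B10's MuSC-like cells (58.1% to 61.2%, Clopper-Pearson), 40.7% in *mdx* (39.0% to 42.5%), 56.5% in DBA (54.5% to 58.4%) and 34.5% for D2-*mdx* (32.7% to 36.3%). Without thinning the shares were 86.8%, 58.0%, 91.1% and 53.2%. White blood cell-like cells gave 10.7% in *mdx*, 30.4% in DBA (13.2% to 52.9%, 23 cells) and 6.88% in D2-*mdx* at the same 3000 UMIs. Their median depths were 8170.0, 11684 and 10312 before thinning. This share was thus higher in the wildtype library that could be read. How much of it is carried-over RNA was not tested.

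*Utrn* UMIs were found in 45.3%, 33.7%, 44.7% and 30.8% of MuSC-like cells at 3000 UMIs, and in 76.5%, 51.1%, 82.0% and 48.8% without thinning. The difference in share, *mdx* minus B10, was -18.9 percentage points (-21.3 to -16.6) for *Dmd* and -11.6 (-13.9 to -9.25) for *Utrn*, and D2-*mdx* minus DBA gave -22.0 (-24.6 to -19.3) and -13.9 (-16.5 to -11.3) points. Cells with at least 3 *Dmd* UMIs made up 10.2% of B10's MuSC-like cells, 4.01% in *mdx*, 7.60% in DBA and 1.46% for D2-*mdx*. The variance of the *Dmd* count was 1.32, 1.39, 1.22 and 1.14 times its mean in the 4 libraries, where counting alone gives about 1.

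**Figure D5:**
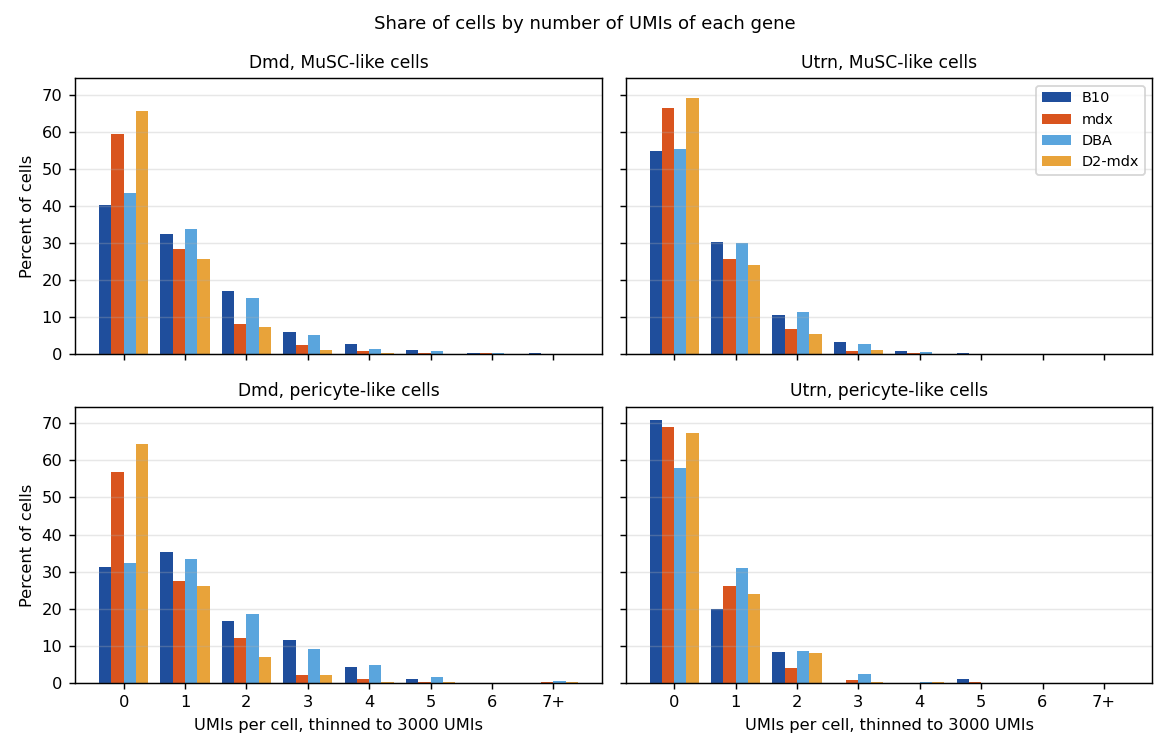
Percent of MuSC-like (top) and pericyte-like (bottom) cells by their number of *Dmd* (left) and *Utrn* (right) UMIs after thinning each cell to 3000 UMIs, with the libraries as coloured bars. The share of MuSC-like cells with 0 *Dmd* UMIs was 40.4% in B10 and 59.3% in *mdx*, and 43.55% in DBA and 65.5% in D2-*mdx*, and every library had its highest bar at 0 for *Utrn*.

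Both genes were found in the same MuSC-like cell in 28.7%, 15.1%, 26.3% and 11.1% of cells (B10, *mdx*, DBA, D2-*mdx*), where the product of the 2 shares is 27.0%, 13.7%, 25.3% and 10.6%. In pericyte-like cells the joint shares were 18.8%, 16.1%, 30.2% and 13.2%, beside products of 20.1%, 13.3%, 28.5% and 11.6%. The joint share was above the product in each library for MuSC-like cells and in all but B10 for pericyte-like cells. The differences were small, and whether they exceed counting error was not tested. Neither gene had a UMI in 40.7% of *mdx* and 45.8% of D2-*mdx* MuSC-like cells at this depth, which limits what single cells can show.

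The partners of dystrophin in its membrane complex that reached 10 CPM differed from their control levels by less than 2-fold in dystrophic myogenic cells. Of the 18 genes of the complex, 9 reached 10 CPM in either library of both pairs, and 0 of 9 were past 2-fold in either direction in either comparison, where 5.19% and 5.84% of all genes were lower and 4.7% and 5.82% higher. Beside such shares, 0 of 9 does not set these genes apart from the rest. Most of the 9 were somewhat lower, with ratios below 0 for 7 in *mdx* and 8 in D2-*mdx*. Their median ratio was -0.21 in *mdx* and -0.18 in D2-*mdx*, beside -0.03 and -0.07 for all genes.

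*Dag1*, which encodes both subunits of dystroglycan, stood at 1521 CPM in B10, 1345 in *mdx*, 1569 in DBA and 1373 for D2-*mdx* over all myogenic cells, with ratios of -0.18 (-0.19 to -0.16) and -0.19 (-0.21 to -0.17). *Sgca* (α-sarcoglycan), at 48.0, 26.7, 53.9 and 30.1 CPM, had the lowest ratios of the 9, -0.85 (-0.96 to -0.74) and -0.84 (-0.95 to -0.73). *Sgcb* (β-sarcoglycan) had ratios of -0.21 and -0.18, *Sgce* (ε-sarcoglycan) -0.11 and -0.09, and *Sspn* (sarcospan) -0.27 and -0.33. *Sntb2*, a syntrophin gene, was higher in both, 0.39 and 0.27. *Dtnb* (β-dystrobrevin) gave -0.45 and -0.39, and *Lama2*, the laminin chain that dystroglycan binds in muscle, 0.24 and -0.02. *Drp2* stood at 85.1 to 95.1 CPM in the 4 libraries.

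The other 9 genes of the complex were below 10 CPM. *Sgcd*, *Cav3*, *Sntb1* and *Dtna* held 1 to 48 UMIs in each control library and 19 to 195 in each dystrophic one, *Sntg2* and *Nos1* (neuronal nitric oxide synthase) had 13 to 75 UMIs in every library, and *Sgcz*, *Sntg1* and the dystrophin relative *Dytn* had no UMI in myogenic cells. The classes differed in which partners they held. *Dag1* averaged 1496 CPM in MuSC-like and 1665 in glial cell-like cells but 223 in pericyte-like and 137 in endothelial-like cells. *Sgcd* (δ-sarcoglycan), at 0.117 CPM in MuSC-like cells, averaged 65.1 CPM in glial cell-like and 111 in Schwann-like cells. The endothelial-like and Schwann-like averages rest on *mdx* and D2-*mdx* only, the other averages on all 4 libraries, so they also differ in genotype.

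The 5 genes whose level over the 37 class sums with at least 20 cells was most like that of *Dmd*, by Pearson's r of log2(CPM + 1) among 9005 genes with a mean of at least 10 CPM, included *Tspyl2* (0.872), *Chd9* (0.871), *Pnisr* (0.867) and *Son* (0.857). For *Utrn* the 5 were *Ccdc47* (0.921), *Mical3* (0.869), *Appbp2* (0.855), *Zdhhc8* (0.851) and *Sptan1* (0.849), the last being α-spectrin, a rod-shaped cytoskeletal protein like utrophin. *Utrn* itself had rank 763 in likeness to *Dmd* (r = 0.568). Over the 14 sums of B10 and DBA alone, 0 of the 5 genes were retained for either gene, so the lists describe these 37 sums only. The sums share 4 libraries and their depth, and these values are a description.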

How the data were processed

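Cells sorted from hindlimb muscle of 4 mouse strains, 2 pooled mice and 1 10X 3′ library each, were analysed from the deposited UMI counts, which the authors had made with Cell Ranger 3.0.1 on mm10 by the submitters' processing notes and left unnormalized. Cells were kept at 1000 to 5000 detected genes and a mitochondrial share of up to 8%, and doublets were scored with Scrublet (Scanpy 1.11.5) and the top-scoring cells removed up to the expected number. Kept cells held 37016795 to 52742197 UMIs per library.

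Libraries were integrated in Seurat 5.3.0 (R 4.3.3; 2000 variable features, 30 dimensions) with *Dmd* and *Utrn* left out, and clustered at resolution 0.1, the myogenic cells again at 0.2. Clusters were named from marker genes. UMIs were summed by class and library and scaled to CPM, with 95% exact Poisson intervals for levels, Clopper-Pearson intervals for shares and binomial intervals for ratios. A level of 3 counts was taken as the floor. For shares, cells were thinned to 3000 UMIs. With 1 library per strain no test was run, and a gene that reached 10 CPM in either library of a pair was called at 2-fold. The calculations were tested on simulated data.

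The text names *Dmd*, *Utrn*, the dystrophin complex and its relatives, the 5 genes most like each, the 4 satellite cell genes, and markers or leading genes where a class name was checked, which is how *Fos* was chosen after its values were seen. Some genes that this rule names are not reported here. The members and lists were chosen with earlier results of these data known. Alternatives changed the cell filters, doublets, integration, resolution, scaling (edgeR 4.0.16 TMM and DESeq2 1.42.0 size factors), thinning and the CPM minimum.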

Additional observations from a re-analysis of the deposited data

Results flagged for a closer look

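The barcodes of B10 with under 1000 genes entered no comparison, and they held *Dmd* and *Utrn*. There were 4739 of them with a median of 404 UMIs, and their summed counts gave 408 CPM of *Dmd* (384 to 433) and 177 CPM of *Utrn* (161 to 193). *Pax7* stood at 537 CPM in the same barcodes. The other libraries had 11 to 21 barcodes under 1000 genes, which held at most 1 UMI of either gene. In B10, 4143 of 9931 barcodes had over 8% mitochondrial UMIs, against 30 to 272 barcodes in the other libraries. Whether the low-gene barcodes are shallow cells or free RNA was not tested.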

How the results depend on the processing

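Every strain ratio of *Dmd* that had a value, dystrophic over control, stayed below 0 under the alternatives run. For all myogenic cells the ratios (*Dmd* then *Utrn* in *mdx*, then both in D2-*mdx*) became -1.62, -0.87, -2.09 and -1.27 with at least 500 genes and no upper limit, -1.18, -0.72, -1.32 and -0.90 as means over cells, -0.93, -0.62, -1.08 and -0.75 at the control's mix of states, and -1.39, -0.74, -1.54 and -0.97 with TMM factors. DESeq2 factors gave -1.5002 and -0.93 in D2-*mdx*. In MuSC-like cells *Dmd* was -1.02 and -1.20 with that gene filter, -1.23 and -1.27 without integration, -0.78 and -0.95 with DESeq2 factors, and in *mdx* -0.92 at resolution 0.4 and -0.79 with TMM factors. *Utrn* there was -0.69 and -0.83 without integration, -0.53 and -0.66 with DESeq2 factors, -0.53 in *mdx* with TMM factors and -0.83 in D2-*mdx* with that gene filter.

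The glial over MuSC-like log2 ratio of *Dmd* in *mdx* and D2-*mdx* was 1.12 and 1.00 with that gene filter, 0.79 and 0.68 with doublets kept and 1.37 and 1.13 without integration. With doublets kept, the Schwann over MuSC-like ratio of *Utrn* was 2.24 and 1.56, and that of *Dmd* turned from 0.41 and 0.36 to -0.30 and -0.81. The causes were not tested.

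Share differences without thinning were -28.8 and -37.9 points for *Dmd* and -25.4 and -33.2 for *Utrn*. Thinned to 5000 UMIs, *mdx* minus B10 gave -22.1 and -15.2, and thinned to 2000, D2-*mdx* minus DBA gave -11.1 for *Utrn*. With no CPM minimum, 2 complex genes were lower and 5 higher in *mdx*, and 5 higher in D2-*mdx*, as genes of a few UMIs entered. Of the 5 genes most like *Dmd* and *Utrn*, 2 and 1 were shared with a Spearman ranking and 0 with B10 and DBA sums only.

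Leaving out cells with over 1% mature fibre UMIs was chosen after seeing the data and moved none of these values beyond its interval. No paired analysis was possible because each strain has 1 library, for which leaving out a replicate is not possible either. Few control cells of the glial, Schwann, endothelial and white blood cell classes limit those ratios.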
